A study of Mus musculus with 2 samples.

Results

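Matrix-rich cells of the kidney interstitium are described here in newborn mice. A cell was taken as a member when it held at least 1 UMI (unique molecular identifier, the tag that marks 1 captured transcript) of at least 3 of 6 matrix genes, Dcn, Lum, Col14a1, Fbln5, Thbs2 and Igfbp3. It also had to hold at least 2 of the 3 collagen genes Col1a1, Col1a2 and Col3a1, and a doublet score by the authors (their hybrid score) of 1 or less. In all 753 of 14565 cells met the rule, 433 of 9071 in the control library and 320 of 5494 in the exposed library. They were set beside 2955 comparison cells, which held Col3a1 and at most 2 of the 6 matrix genes (1873 control and 1082 exposed cells). The 9 genes of the rule chose the cells, and genes that vary with them were chosen along with them, so every difference between members and comparison cells is a description.

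Fibroblasts lie between the tubules, vessels and capsule of the kidney and around its arteries, and they build the fibrillar matrix that holds these parts together. Collagen types I and III form the fibrils. Small proteoglycans such as decorin (Dcn) and lumican (Lum) sit on the fibrils and set their spacing, collagen XIV (Col14a1) links them, and fibulin 5 (Fbln5) helps to assemble elastic fibres. Thrombospondin 2 (Thbs2) is a secreted regulator of matrix and vessels, and Igfbp3 binds insulin-like growth factors. In the newborn mouse kidney, stroma still surrounds forming nephrons, and its cells differ between cortex, medulla and the walls of vessels.

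Whole kidneys of the strain C57BL/6J, taken on postnatal day 2, were dissociated and sequenced by a droplet method for RNA of single cells. There is 1 library of controls and 1 of mice exposed to maternal diabetes, to learn how that exposure bears on the developing kidney. The descriptions speak of 1 kidney and of pooled cells, and name male mice, without settling how many animals a library holds. Y-linked transcripts were found in members of both libraries, with Ddx3y in 18.2% of control and 20.9% of exposed members. Cells were released with trypsin and frozen before the libraries were made. Members had a median of 2423 UMIs and 1203 genes per cell in the control library (range 1021 to 7611 UMIs) and of 3119 UMIs and 1484.5 genes in the exposed library (1266 to 10437 UMIs). Comparison cells were deeper, with medians of 2965 and 3828.5 UMIs. The median percent of UMIs from the mitochondrial genome was 6.23 in control and 4.79 in exposed members, and 5.87 and 4.49 in comparison cells. The libraries share 14 cell barcodes, none of them of a member. With 1 library per group no test was possible and no p-value is given. Bracketed ranges are 95% intervals that cover counting error only: they treat UMIs or cells as independent draws and hold no spread between animals.

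The name of the cells was checked against its genes first. Dcn was detected in 62.6% of control members (57.8 to 67.2) and 73.8% of exposed members (68.6 to 78.5), against 10.9% and 10.5% of comparison cells. In tubule cells, which should lack the gene, it was found in 0.634% and 0.394%, although their median depths were higher (4625.5 and 5486 UMIs). So not every member held a Dcn transcript, and 37.0% of control members (160 cells) and 23.8% of exposed members (76 cells) met the rule with Igfbp3 and without Dcn. Igfbp3, in 83.8% and 74.7% of members, was also found in 46.1% and 50.2% of endothelial cells (median depths 2712.5 and 3210.5 UMIs), so it marks more than fibroblasts. Fbln5 was the gene most often detected, in 91.7% and 94.4% of members and 40.0% and 51.7% of comparison cells. Col14a1 was found in 65.1% and 71.25% of members against 7.85% and 7.76% of comparison cells, and Thbs2 in 46.2% and 50.3% against 2.62% and 2.13%. Lum was rare at this depth, in 13.2% and 16.25% of members, and 50 of the 57 control members and 49 of the 52 exposed members with Lum also held Dcn. In the GENCODE annotation of mm10, Dcn lies at chr10:97479609-97518143 and Lum beside it on the same chromosome and strand. The members are therefore called matrix-rich cells below, since Dcn was not detected in all of them.

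**Figure D1:**
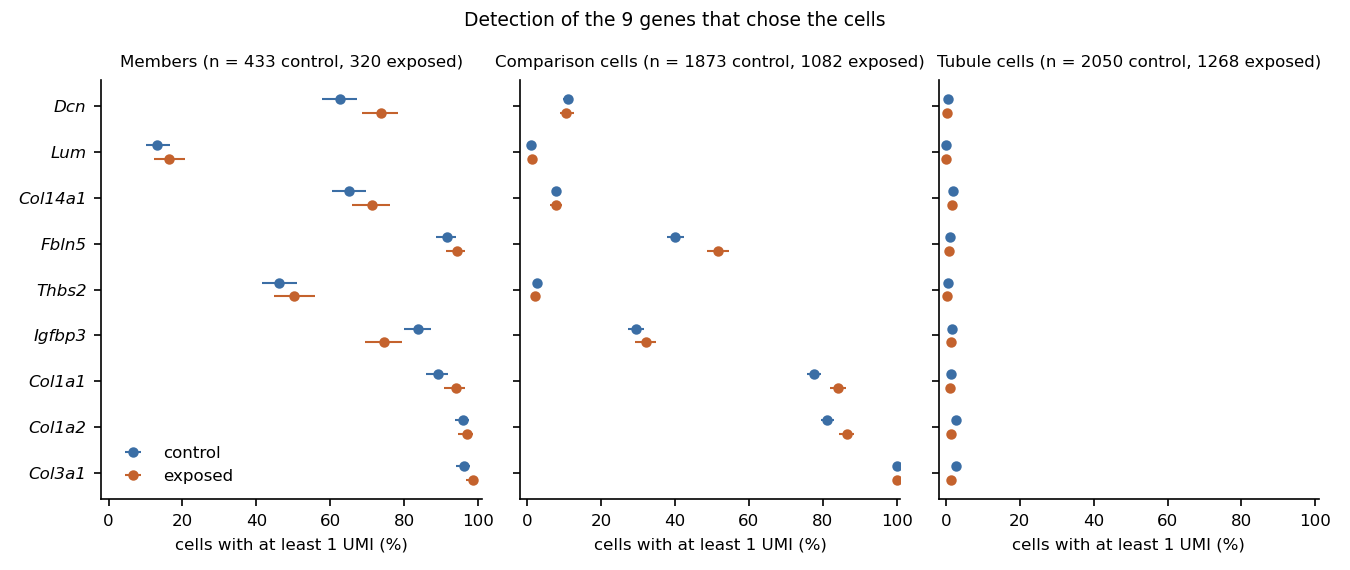
Percent of cells with at least 1 UMI of each of the 9 rule genes, in members, comparison cells and tubule cells (at least 4 of 12 tubule markers) of both libraries, with 95% binomial intervals of counting error. Dcn was detected in 62.6% of control and 73.8% of exposed members, against 10.9% and 10.5% of comparison cells; these genes chose the cells.

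The set of matrix genes found in a member varied. In the control library the set met most often was Col14a1, Fbln5 and Igfbp3 together without the others, in 81 members (18.7%), and the same set was found in 34 exposed members (10.6%). A set of 5 genes, all except Lum, was found in 57 control members (13.2%) and 46 exposed members (14.4%). Dcn with Fbln5 and Igfbp3 alone was found in 49 (11.3%) and 44 (13.8%). Dcn and Igfbp3 occurred together in 46.9% of control and 50.9% of exposed members, and only 2 control and 8 exposed members held neither.

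Many cells lay on either side of the edge of the rule. Exactly 3 matrix genes were found in 244 control and 147 exposed members, which lie just inside the limit. Just outside it were 501 control and 343 exposed comparison cells with exactly 2 matrix genes and at least 2 collagens. A further 39 control and 17 exposed cells met the gene rule and were dropped for their doublet score. At least 4 matrix genes were found in 43.6% of control members (189 cells, 38.9 to 48.5) and 54.1% of exposed members (173 cells, 48.4 to 59.6). The median depth of members was also higher in the exposed library, and whether depth accounts for this gap was not tested.

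Genes outside the rule were graded along the same count of matrix genes, in cells with at least 2 of the 3 collagens. Dpep1, which encodes a membrane dipeptidase, stood in control cells at 6.24 CPM (its UMIs per 1000000 UMIs of those cells) where no matrix gene was found, at 54.9 with 2, at 195 with 3 and at 339 with 5 or 6. In the exposed library the corresponding levels of Dpep1 were 11.5, 40.3, 122 and 265 CPM. Lox, the lysyl oxidase that cross-links collagen and elastin, went from 15.3 CPM without a matrix gene to 102 with 3 and 318 with 5 or 6 in the control library, and from 12.6 to 74.4 and 393 in the exposed library. Sparc, a collagen-binding secreted protein, went over the same steps from 720 to 1763 and 3785 CPM in the control library and from 760 to 1646 and 5873 in the exposed library. The opposite grade was seen for Bex2, at 112 CPM in control cells without a matrix gene and 10.3 in those with 5 or 6, and at 93.4 and 13.3 in the exposed library. So for Dpep1, Lox and Sparc the summed level of the members nearest to the limit of 3 genes lay between 2 others. These were the levels of the comparison cells and of the members richest in matrix genes. The levels are summed over the cells of each step. Whether single cells are graded, or each step mixes distinct cells in other proportions, was not tested.

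**Figure D2:**
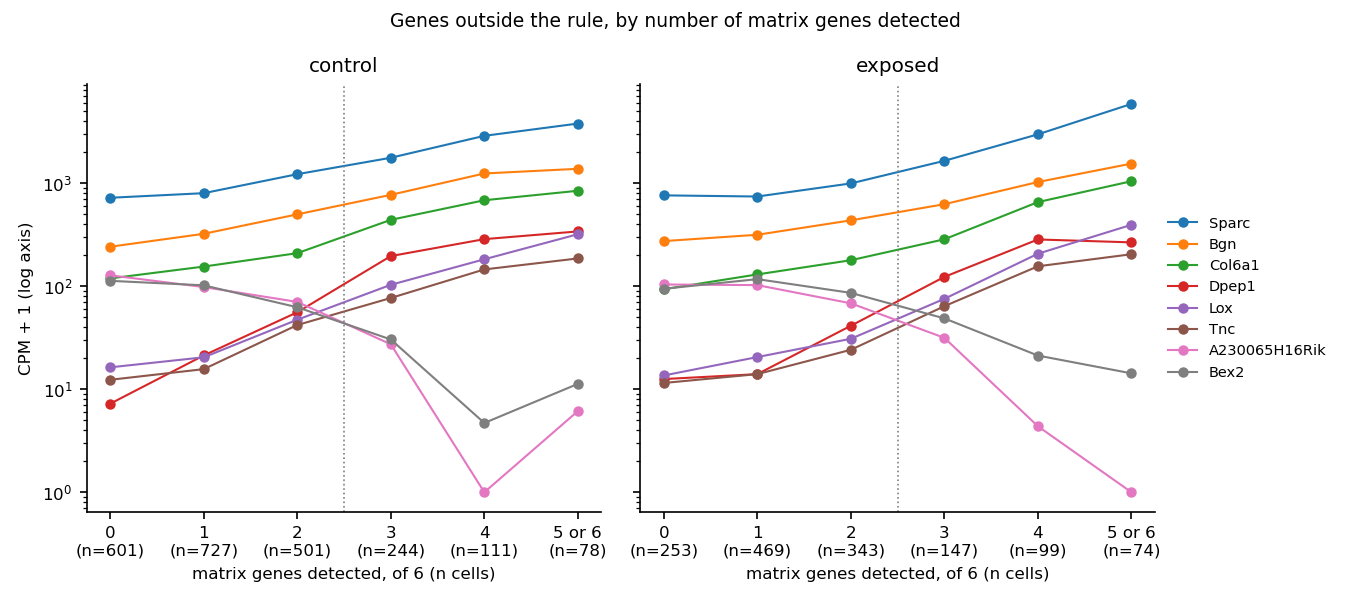
Levels in CPM plus 1 (log axis) of genes outside the rule in members (right of the dotted line) and in comparison cells with at least 2 collagens, grouped by how many of the 6 matrix genes each cell held, for the control and exposed libraries. Dpep1 went from 6.24 CPM with none to 339 with 5 or 6 in the control library, and Bex2 from 112 to 10.3.

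Outside the rule, the dipeptidase gene Dpep1 and the cross-linking enzyme gene Lox led the genes higher in members in both libraries. Of 7256 genes measured (at least 50 UMIs over members and comparison cells in each library), 98 (1.35%) were over 1 and 31 (0.427%) under -1 in both libraries in the log2 ratio of members over comparison cells, with 10 CPM added to each level. At any size, 38.1% of genes were higher and 33.1% lower in both. Fold values below are plain ratios of CPM. Of the 15 genes that led the higher side, Dpep1 stood at 242 CPM in control members against 24.9 in comparison cells (9.73-fold, 7.93 to 11.99) and at 199 against 20.3 in the exposed library (9.80-fold, 7.60 to 12.7), and it was found in 37.6% and 35.9% of members. Lox was 6.93-fold higher in the control library (159 against 23.0 CPM, 5.51 to 8.73) and 9.01-fold higher in the exposed library (180 against 20.04 CPM, 6.95 to 11.7). Both genes were thus several-fold higher in members in each library.

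Several of the other leading genes also encode matrix proteins. Mfap5, a microfibril protein of elastic fibres, stood at 129 CPM in control members against 19.4 and at 175 against 17.5 in the exposed library. Tnc, which encodes the matrix glycoprotein tenascin C, stood at 112 against 19.4 CPM and at 119 against 15.7. Col6a1 and Col6a2 encode chains of collagen VI, which forms a beaded network around cells. Col6a1 was 3.87-fold higher in control members and 4.24-fold higher in exposed members, and Col6a2 4.23-fold and 5.53-fold.

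Rbp4, the plasma carrier of retinol, stood at 50.4 CPM in control members against 2.05 in comparison cells (24.7-fold, 13.1 to 50.5). In the exposed library Rbp4 had 114 UMIs in members and 0 in comparison cells, at least 158-fold higher when 3 UMIs over the comparison cells are taken as the floor. It was found in only 27 control and 38 exposed members. Kcnk2, a potassium channel, stood at 56.7 against 7.16 CPM and at 69.7 against 1.61. Ccl21a, a chemokine of lymph vessels and lymphoid stroma, was 6.67-fold higher in the control library and 20.4-fold higher in the exposed library, and reads of its near-identical copies may have been divided among them. Other leading genes were Zim1, Pi15, Cldn11, C1qtnf2 and Clca1, with ratios between 4.05 (C1qtnf2, control) and 15.2 (Pi15, exposed).

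Fibril collagens and their processing proteins were mostly higher in members. All 11 measured collagen genes outside the rule were higher in both libraries, 5 of them by over 1 on the log2 scale, with list medians of 1.04 in control and 1.12 in exposed kidney. Col5a1, a chain of the collagen V that starts fibrils, stood at 228 against 73.8 CPM in control and 238 against 73.2 in exposed kidney. Of 20 measured genes for collagen folding, trimming and cross-linking, 18 were higher in both libraries (medians 0.38 and 0.41). Pcolce, an enhancer of the protease that trims procollagen, was 2.78-fold and 2.96-fold higher, and Sparc 2.79-fold and 3.66-fold. Serpinh1, the collagen chaperone, was near 1 (1.14-fold and 0.981-fold).

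Elastic fibre genes showed a like pattern, with 13 of 14 higher in both libraries (medians 0.69 and 0.76). Eln, which encodes tropoelastin, was 3.24-fold higher in control members and 4.64-fold higher in exposed members. Fbn1, the main fibrillin of adult microfibrils, was 2.65-fold and 2.86-fold higher. The exception was Fbn2, a fibrillin of developing tissue, at 0.625 and 0.878 of its level in comparison cells.

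Among 10 proteoglycan genes, 6 were higher and 4 lower in both libraries (medians 0.42 and 0.40). Bgn, which encodes biglycan and is related to decorin, stood at 990 against 319 CPM in control and 937 against 325 in exposed kidney, and Ogn was 2.81-fold and 2.89-fold higher. Gpc6 was lower, at 0.803 and 0.650 of its comparison level. Of 14 matricellular and adhesive genes, 11 were higher and 3 lower (medians 0.88 and 0.92). Postn, which encodes periostin, was 3.30-fold higher in control and 9.27-fold higher in exposed kidney, and Fn1, fibronectin, 1.67-fold and 2.26-fold. Cyr61 stood at 0.653 and 0.706 of its comparison level. Basement membrane genes were mixed, with 7 of 12 higher and 3 lower in both. Col4a1 was 2.27-fold and 2.70-fold higher, while Col18a1 stood at 0.420 and 0.475. Among 18 matrix proteases and inhibitors, 13 were higher and 4 lower, and Serping1, the C1 inhibitor of complement, was 2.00-fold and 2.16-fold higher.

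Growth factor genes did not move as 1 group. Of 19 genes of insulin-like growth factor, TGF-beta and BMP signalling, 12 were higher and 7 lower in both libraries. Igf1, which encodes a growth factor that Igfbp3 can bind, was 4.44-fold higher in control and 3.32-fold higher in exposed members, and Igfbp2 3.07-fold and 2.81-fold. Igfbp5, another binding protein, stood at 0.470 and 0.406. Of 22 genes of Wnt, FGF, PDGF and retinoid signalling, 13 were higher and 6 lower. Rspo3, an enhancer of Wnt signalling made by cortical stroma, stood at 0.305 and 0.751 of its comparison level, and Aldh1a2, an enzyme of retinoic acid synthesis, at 0.364 and 0.346. Both also belong to the list of cortical stroma genes, which did not go their way. Of its 10 genes 6 were higher and 3 lower in both libraries (medians 0.51 and 0.21), with Clca1 at 5.23-fold and 4.12-fold.

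Chemokine and complement genes were divided, with 7 of 12 higher and 2 lower in both libraries, 5 of them by over 1 on the log2 scale. Cxcl12, the ligand of Cxcr4, was 3.01-fold and 2.66-fold higher, and the alarmin Il33 2.83-fold and 2.71-fold. Of 16 surface receptor and adhesion genes 13 were higher and 0 lower in both, led by Vcam1, which binds leukocyte integrins, at 3.96-fold and 4.46-fold. Transcription factors of stroma had medians near 0 (0.02 and 0.15), with 14 of 28 higher and 9 lower. Zeb2 was 3.13-fold and 3.50-fold higher and Tcf21, a factor of interstitial fibroblast precursors, 1.94-fold and 1.91-fold.

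Lists of markers of other stromal classes differed in how many of their genes were higher in members. Among 12 genes of adventitial fibroblasts, which ensheath vessels, 9 were higher and 2 lower in both libraries (medians 0.54 and 0.34). Pi16, a gene of adventitial fibroblasts in many organs, was found in only 4 control and 3 exposed members. Ly6a was lower at 0.445 and 0.235 of its comparison level, and was also a leading gene of the endothelial cluster described below. Penk, a gene of medullary stroma, was similar in both cell sets, at 484 against 397 CPM in control and 417 against 395 in exposed kidney. Among 17 contractile genes 7 were higher and 6 lower. Acta2, smooth muscle actin, was 2.46-fold and 2.11-fold higher and Tagln 3.20-fold and 2.57-fold, so members were not low in the common actin-binding genes. Myofibroblast and mesangial genes were higher in 11 of 12, among them Agtr1a, the angiotensin II receptor, at 3.66-fold and 4.33-fold.

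Renin led the lower side. Ren1, the marker of juxtaglomerular cells, stood at 4.50 CPM in control members against 127 in comparison cells and at 2.86 against 360 in the exposed library, and was found in 5 and 3 members. The level in comparison cells came from few of them, with Ren1 in 26 control cells (1.39%) and 18 exposed cells (1.66%), against 1.15% and 0.938% of members. Etv4, a transcription factor of FGF-responsive cells, stood at 0.172 and 0.136 of its comparison level, Bex2 at 0.213 and 0.320, and the unnamed transcript A230065H16Rik at 0.170 and 0.188. The other genes on this side included Bhlhe40 and 5 genes of tubule cells, Atp1b1, Slc12a1, Wfdc2, Fxyd2 and Defb1. Fxyd2, a sodium pump subunit, stood at 115 against 338 CPM in control and 44.9 against 196 in exposed kidney. The summed level of the 12 tubule markers was 241 CPM in control and 141 in exposed members, against 813 and 492 in comparison cells, and 2 of these markers, Cdh1 and Lrp2, had 0 UMIs in exposed members. In cells without 3 or more markers of another cell type the log2 ratio of Fxyd2 was 0.11 in control and 0.02 in exposed kidney.

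Cell cycle genes were lower in members than in comparison cells. Of 20 measured G2/M genes 17 were lower and 0 higher in both libraries (medians -0.72 and -0.28), and of 18 S phase genes 17 were lower and 0 higher (medians -0.53 and -0.34). At least 3 G2/M genes were found in 13.9% of control members (10.7 to 17.5) and 13.8% of exposed members (10.2 to 18.0), against 31.9% and 27.3% of comparison cells. Members were shallower, so cells were also thinned to 2000 UMIs each, which left out 141 control and 45 exposed members. The shares were then 15.8% and 15.3% in members and 30.5% and 23.3% in comparison cells. Glycolysis genes were also lower, 11 of 13 in both libraries (medians -0.45 and -0.44), with Gapdh at 0.625 and 0.620 of its comparison level. Of 13 heat shock genes 12 were lower, and the exception was Cryab, a small heat shock protein, at 1.57-fold and 1.94-fold.

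Few members held 3 or more markers of endothelium, of tubule, or of macrophages and neutrophils. A single tubule transcript was more common, with Fxyd2 in 15.5% of control and 10.6% of exposed members, against 16.3% and 10.8% of comparison cells. At least 3 endothelial markers were found in 1.15% of control and 0.312% of exposed members, at least 3 tubule markers in 1.39% and 1.56%, and at least 3 markers of macrophages and neutrophils in 1.15% and 0.312%. No member held 3 erythroid or 3 glial markers. Of cells taken as tubule by at least 4 tubule markers, 2 control and 1 exposed cells met the rule for members. Of cells taken as endothelial in the same way, 5 control and 1 exposed cells met it. In the authors' own clusters, which carry no names, 428 of 433 control members fell into cluster 3 of that library and all 320 exposed members into cluster 1 of theirs.

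The members were also clustered together with comparison cells, without the 9 rule genes, to see how they vary among themselves. Of 16 clusters of 3493 cells with at least 2 of the 3 collagens, cluster 4 held 321 of the 753 members (42.6%), 170 control and 151 exposed cells, and members made up 82.3% of its cells. Its leading genes were Dpep1, Ccl21a, Rbp4, Lox and Eln, and no cell type name is given to it. The others lay in clusters led by Penk and Col15a1 (cluster 7, 83 members), by the immediate early genes Atf3 and Jun (cluster 10, 70), by Dkk1 and Cxcl12 (cluster 1, 61) and by Actg2 and Myh11 of smooth muscle (cluster 8, 39). The proliferation genes Ube2c and Rrm2 were among the leading genes of clusters 11 and 12, with 36 and 34 members. Cluster 15, led by Dlk1, Postn and Mfap5, held 28 control and 6 exposed members. Small numbers lay in clusters led by tubule genes (cluster 9, 13 members), endothelial genes (cluster 14, 6) and Ren1 (cluster 6, 3). At a lower resolution, chosen after the data were seen, 367 members (48.7%) shared 1 cluster. Sizes of clusters were not compared between the libraries, since leading genes such as Eln, Rbp4 and Dlk1 differed between them.

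**Figure D3:**
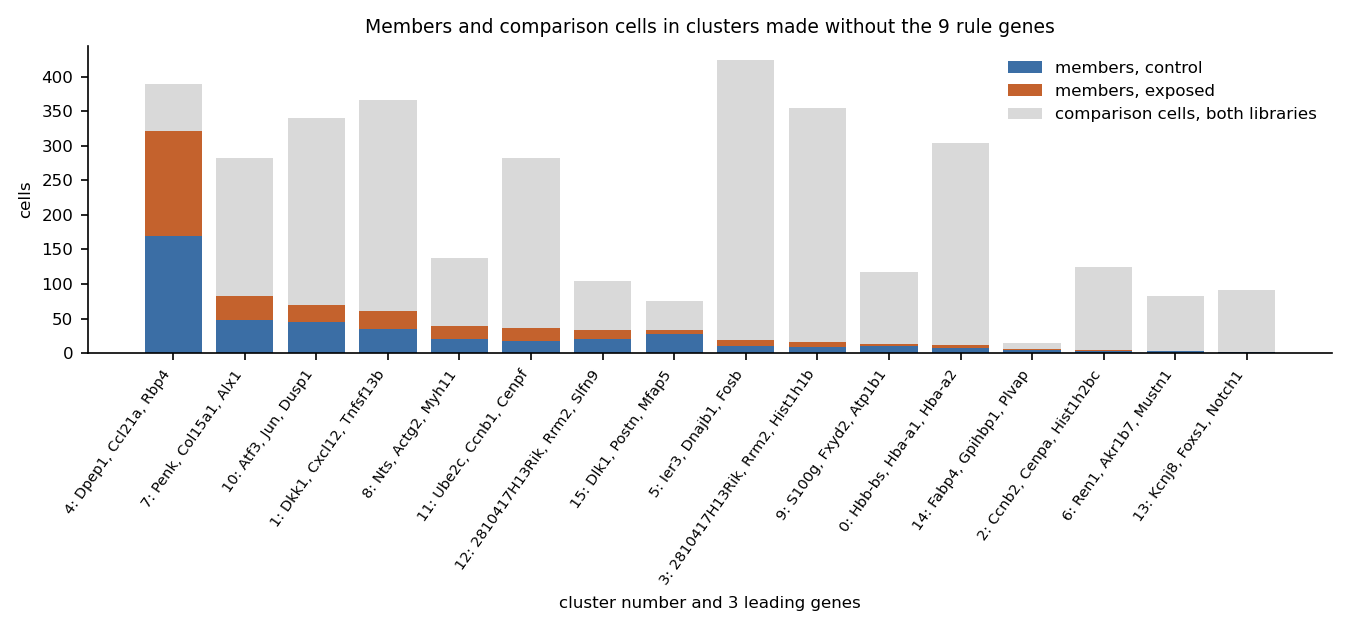
Number of members (coloured by library) and of comparison cells (grey, both libraries together) in each of the 16 clusters, labelled with their number and 3 leading genes. Cluster 4 held 170 control and 151 exposed members and was the only cluster in which members outnumbered comparison cells.

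Members of cluster 4 and the others carried different genes of the set. In the control library Igfbp3 stood at 3101 CPM in members of cluster 4 and 786 in the others, Dcn at 1063 and 1074, and Lum at 88.6 and 193. In the exposed library Igfbp3 stood at 2474 and 455 CPM, Dcn at 2414 and 564, and Lum at 275 and 63.6. Cluster 15, with 28 control and 6 exposed members, held 522 of the 1189 Dcn UMIs and 121 of the 178 Lum UMIs of control members. In members outside both clusters Dcn stood at 426 CPM in the control library and 513 in the other, and Lum at 37.5 and 56.1. Dcn, which names the cells, was thus higher in cluster 4 than in those members in each library, and in the control library highest in cluster 15, at 7685 CPM. Penk was the reverse of Igfbp3, at 62.9 CPM in cluster 4 and 678 outside it in the control library and at 83.7 and 639 in the exposed library. Members of cluster 4 were shallower (median 1897.5 and 2630 UMIs) than the others (2630 and 3543), yet 66.5% and 76.2% of them held at least 4 matrix genes, against 28.9% and 34.3% of the others.

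The share of members among all cells was 4.77% in the control library (4.34 to 5.23) and 5.82% in the exposed library (5.22 to 6.48). Among cells with Col3a1 the share was 18.2% (417 of 2294 cells, 16.6 to 19.8) and 22.6% (316 of 1400 cells, 20.4 to 24.9). The rule needs several genes to be seen in a cell, and the exposed library was deeper. With each cell thinned to 2000 UMIs, and shallower cells left out, the shares of all cells were 2.74% (208 of 7587) and 3.73% (185 of 4965). The order of the libraries was the same among the cells kept, and the value itself depends on depth. Thinning left out 141 of the 433 control members and 45 of the 320 exposed members. Since this loss was larger in the control library, whether depth sets the order cannot be told from the thinned cells.

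Within members, the fibril collagens were higher in the exposed library. Of 5536 genes measured in members (at least 50 UMIs over both libraries), 196 (3.54%) were over 0.5 and 115 (2.08%) under -0.5 in the log2 ratio of exposed over control, and the median gene stood at 0.04. With the scale set by the median ratio of genes with at least 200 UMIs in place of CPM, the split was 133 higher and 155 lower. At any size 57.7% of genes were higher and 42.3% lower. Col1a1 stood at 2127 CPM in control and 3101 in exposed members (1.46-fold, 1.38 to 1.54), against 682 and 651 in comparison cells. Col1a2 stood at 1858 and 2714 CPM (1.46-fold, 1.38 to 1.55), against 704 and 726. Col3a1 stood at 2709 and 4011 CPM (1.48-fold, 1.41 to 1.55), against 1104 and 1091. All 3 genes belong to the rule, so cells were picked for holding them. The same rule was used in both libraries, but exposed members were deeper (median 3119 UMIs against 2423). A deeper cell meets a limit of 1 UMI more easily.

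This gap did not run through all members. The 3 collagens together had a median of 40.4 UMIs per 10000 in control and 44.6 in exposed members, while the upper quartiles were 76.8 and 100.4 and the highest cells 1026 and 2156. Over 300 per 10000 were found in 24 control members (5.54%, 3.58 to 8.14) and 31 exposed members (9.69%, 6.68 to 13.5). In members with exactly 3 matrix genes, a split made after the data were seen, the log2 ratio of exposed over control was -0.27 for Col1a1, -0.13 for Col1a2 and -0.12 for Col3a1. The gap lay in members with 4 or more: their median for the 3 collagens was 51.0 per 10000 in control and 77.5 in exposed kidney, and 17 (8.99%) and 27 (15.6%) of them were over 300. By cluster, Col1a1 stood at 2718 CPM (2548 to 2896) in control and 5859 (5630 to 6096) in exposed members of cluster 4, and at 1855 and 1270 in the others. Of the control UMIs outside cluster 4, 510 came from the 28 members of cluster 15, and in members outside both clusters Col1a1 stood at 1301 CPM in control and 1234 in exposed kidney (0.948 of the control, 0.859 to 1.05). So Col1a1 was higher in exposed members within cluster 4, and outside both clusters the interval of the ratio included 1. With only cluster 15 left out, a setting chosen after the data were seen, the ratios of exposed over control were 1.76 for Col1a1, 1.65 for Col1a2 and 1.81 for Col3a1.

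**Figure D4:**
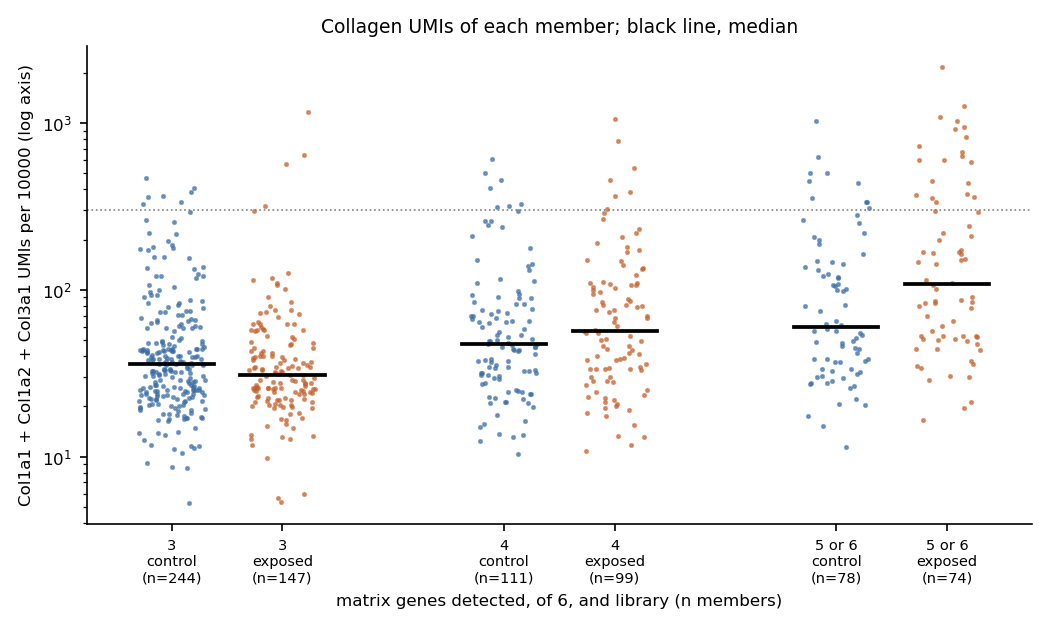
Summed UMIs of Col1a1, Col1a2 and Col3a1 per 10000 UMIs of each member (log axis), by library and by number of matrix genes found in the cell, with medians as black lines and a dotted line at 300. Medians with exactly 3 matrix genes were 35.9 in control and 30.9 in exposed members, and above the dotted line lay 24 control and 31 exposed members in all.

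Of the 6 matrix genes, none was past 0.5 in either direction between the libraries, and the median of the 6 was -0.04. Dcn stood at 1070 CPM in control and 1302 in exposed members, Igfbp3 at 1515 and 1260, Fbln5 at 1148 and 1074, Col14a1 at 479 and 481, Thbs2 at 285 and 345, and Lum at 160 and 148. For Dcn and Lum this rested on cluster 15. Without its members Dcn stood at 639 and 1289 CPM (2.02-fold, 1.83 to 2.22) and Lum at 54.6 and 145 (2.66-fold, 1.95 to 3.68). Cluster 15 held 522 of the 1189 control UMIs of Dcn and 121 of the 178 of Lum. Leaving it out was therefore not an independent check. In members outside clusters 4 and 15 the ratio was 1.21 for Dcn (1.02 to 1.42). For Lum it was 1.495 there, and its interval included 1 (0.871 to 2.59). The other collagens had a median of -0.02, with 4 of 10 higher in the exposed library. Of 20 collagen processing genes 12 were higher (median 0.03, and -0.01 with the scale set by the median ratio), and Sparc stood at 1.23-fold (1.17 to 1.30) and Lox at 1.13-fold (0.918 to 1.40). Against the background of 57.7% of genes higher, these lists as a whole were not far from other genes.

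Elastin stood out from its list. Eln was at 220.5 CPM in control and 429 in exposed members (1.94-fold, 1.66 to 2.28) and was found in 23.6% and 37.5% of members, with a log2 ratio of 0.39 in comparison cells. The 14 elastic fibre genes had a median of 0.08, with 9 higher. In cluster 4 Eln stood at 423 CPM in control and 926 in exposed members, and outside it at 127 and 98.5. Among matricellular genes 10 of 15 were higher in exposed members. Postn was 1.27-fold (1.05 to 1.54), with 462 against 117 CPM in cluster 4, and 3.37-fold (2.56 to 4.47) without the members of cluster 15, which held 136 of its 205 control UMIs. Postn is a leading gene of cluster 15, so leaving that cluster out was not an independent check. Fn1 was 1.26-fold (1.12 to 1.43), and Smoc2, a secreted calcium-binding matrix protein, 1.67-fold (1.199 to 2.34).

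Ifi27l2a, an interferon-inducible gene, led the genes higher in exposed members, at 43.2 CPM in control and 214 in exposed members (4.95-fold, 3.61 to 6.91). It was found in 34 control and 106 exposed members, and it was higher in exposed comparison cells too, with 96.3 against 40.6 CPM. Over the alternatives its log2 ratio lay between 1.41 and 2.49. The list of interferon and MHC class I genes did not share this gap. Of its 7 measured genes 4 were higher and 3 lower in exposed members. Their median log2 ratio was 0.032 in members and 0.012 in comparison cells. Ccl21a stood at 47.7 and 108 CPM (2.26-fold, 1.62 to 3.20), Rbp4 at 50.4 and 109 (2.16-fold, 1.56 to 3.03), and Fmo2, a flavin monooxygenase, at 23.4 and 62.1 (2.65-fold, 1.66 to 4.36). In comparison cells the log2 ratios were -0.17 for Ccl21a and -0.27 for both Rbp4 and Fmo2. Rspo3 stood at 36.9 and 85.0 CPM (2.30-fold, 1.57 to 3.42), with -0.09 in comparison cells. Over all members, then, Ccl21a, Rbp4, Fmo2 and Rspo3 were each over 2-fold higher in the exposed library, from low levels. For Rbp4 this did not hold outside cluster 4, of which it is a leading gene. It stood at 74.3 CPM in control and 266 in exposed members of cluster 4. In the other members it stood at 39.4 and 4.77 CPM (30 and 3 UMIs).

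The transcript listed as yam1 stood at 1491 CPM in control and 2756 in exposed members (1.85-fold, 1.74 to 1.97). Ccdc25, Ckap2, a spindle protein of dividing cells, and Wdr34, a dynein subunit of cilia, each stood under 20 CPM in control members and were 2.65-fold, 2.76-fold and 2.80-fold higher. Nts, which encodes neurotensin, and Aqp2, the water channel of collecting duct, were also on this side by rule, yet Nts came from 4 members in each library and Aqp2 from 18 control and 2 exposed members. Without the 5 cells richest in it the log2 ratio of Aqp2 was -1.13.

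The leading genes on the lower side came partly from few cells. S100a9 and S100a8, granule proteins of neutrophils, had 123 and 76 UMIs in control members, held by 2 cells each, and 0 in exposed members, at least 38.6-fold and 23.9-fold lower with a floor of 3 UMIs over the members. The summed level of the 10 macrophage and neutrophil markers was 278 CPM in control and 24.8 in exposed members, with Csf1r, S100a8 and S100a9 at 0 in the latter. Ly6d had 61 UMIs in 1 control member and 3 in 1 exposed member. Fabp4, the fatty acid carrier of fat and capillary endothelium, stood at 236 and 34.4 CPM, with 90.5% of the control UMIs in 5 cells. These values belong to a handful of members.

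Dlk1, Apoe and Igf1 were lower over all exposed members. They were not lower once cluster 15 was left out, with its 28 control and 6 exposed members. These genes are also leading genes of cluster 15, and only the rule genes were kept out of the clustering. That the cluster held many of their control UMIs, and that the gap was lost without it, was therefore partly built in. Whether the gap lies in a distinct kind of cell was not tested. Dlk1, an imprinted gene of embryonic stroma and other precursors, stood at 275 CPM in control and 64.9 in exposed members (0.236 of the control, 0.179 to 0.307), in 39 and 20 members. Cluster 15 held 291 of the 306 control UMIs of Dlk1 and 47 of the 68 exposed UMIs, and 15 and 21 UMIs remained outside it. Within cluster 15 Dlk1 stood at 4284 CPM in control and 2032 in exposed members.

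Apoe, a lipid carrier, stood at 708 and 477 CPM over all members, and at 441 and 451 without cluster 15 (1.02-fold, 0.897 to 1.17). Igf1 stood at 0.598 of its control level (0.449 to 0.791) over all members, and at 68.1 and 69.3 CPM without cluster 15 (1.02-fold, 0.723 to 1.44). So for Igf1 no gap between the libraries was detectable outside cluster 15, of which it is a leading gene. For Apoe the 1.02-fold joined gaps of opposite direction. In cluster 4 Apoe stood at 640 CPM in control and 895 in exposed members. In members outside both clusters it stood at 340 and 145 CPM (0.426 of the control, 0.330 to 0.547). H19, a maternally expressed imprinted transcript, stood at 555 and 327 CPM, and at 455 and 298 without cluster 15 (0.654, 0.564 to 0.757), so that it was lower in exposed members with and without that cluster.

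Atf3, a stress-responsive transcription factor, stood at 104 and 30.6 CPM (0.293, 0.191 to 0.436), and the 19 immediate early genes had a median of -0.16 with 3 higher. Mitochondrially encoded genes were lower in exposed members, 10 of 12 by over 0.5 (median -0.63) and 0 higher, among them mt-Nd1 at 2533 and 1439 CPM. The comparison cells gave -0.54 for this list, and the median mitochondrial percent was also lower in exposed members, as given above. Stox2 stood at 39.6 and 12.4 CPM (0.313, 0.155 to 0.592), and the tubule genes Fxyd2 and S100g at 0.390 and 0.410 of their control levels. The chemokines Cxcl1 and Cxcl14 stood at 0.517 and 0.664, and Icam1, an adhesion molecule of inflamed cells, at 0.504. These were not the rule for such genes. Of 10 measured chemokine, complement and inflammation genes 5 were higher and 5 lower in exposed members. Their median was -0.0015, with 0 over 0.5 and 3 under -0.5.

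Genes of dividing cells were also graded differently between the libraries. Of 18 measured G2/M genes 16 were higher in exposed members, 4 by over 0.5, with a median of 0.34, whereas the comparison cells gave -0.24 with 0 of 18 higher. Top2a, the topoisomerase of dividing cells, was 1.81-fold higher in exposed members (1.43 to 2.32) and Mki67 1.53-fold. The share of members with at least 3 G2/M genes was nevertheless the same within its interval, 13.9% and 13.8%. The 15 S phase genes had a median of 0.06, with 11 higher.

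**Figure D5:**
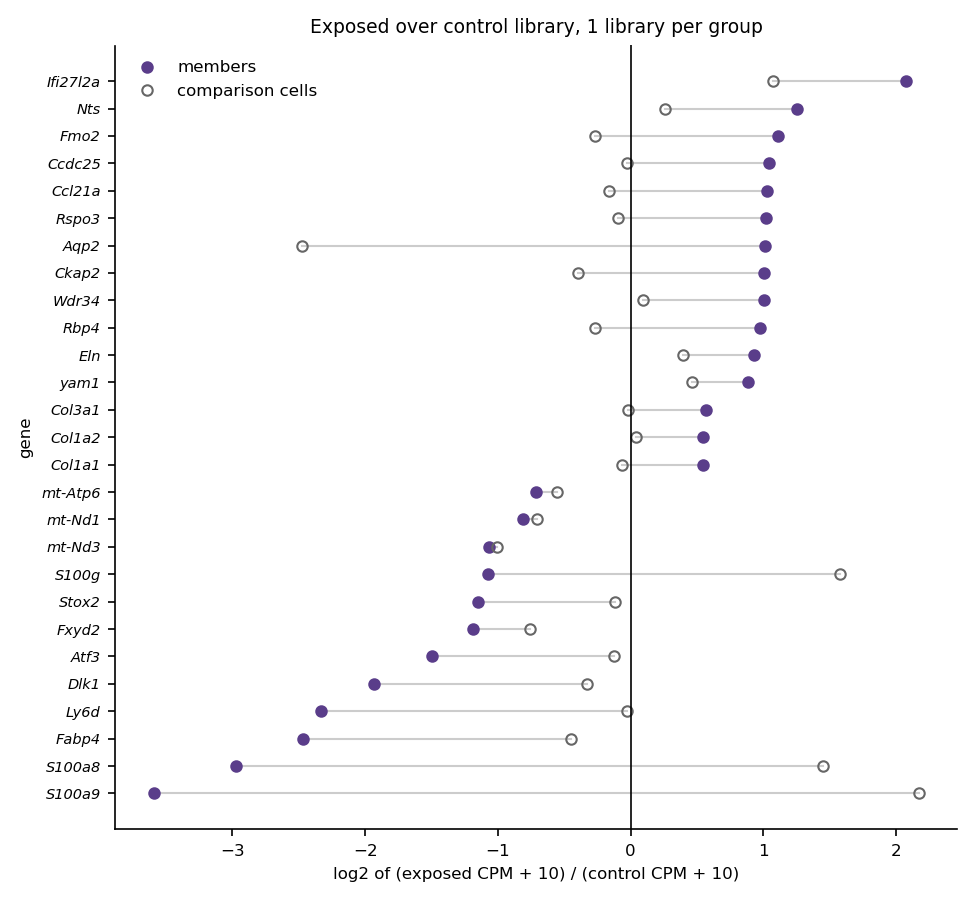
Log2 of the exposed level over the control level (CPM plus 10) in members (filled) and comparison cells (open), for the 12 leading genes on each side and the 3 collagens, with 1 library per group. Ifi27l2a stood at 2.07, Eln at 0.93 and Dlk1, mostly from cluster 15, at -1.93 in members, while S100a9, S100a8 and S100g had opposite signs in the 2 cell sets.

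Taking members against comparison cells, 254 genes (4.59%) had a log2 ratio of exposed over control higher in members by over 0.5, and 138 (2.49%) lower by over 0.5. The 3 rule collagens were among the former, with differences of 0.61 for Col1a1, 0.50 for Col1a2 and 0.58 for Col3a1. Neither these counts nor the collagens have a replicate check, and differences between libraries, animals and groups cannot be told apart.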

How the data were processed

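The authors deposited UMI counts per gene and cell of 2 libraries, made with Cell Ranger 2.2.0 and mm10, per the submitters' processing notes. Their table of cells gives, per the file headers, the percent of mitochondrial UMIs and a hybrid doublet score from the scores cxds and bcds. No source used here states how they chose cells. The deposited log2 values were not used. The rule was applied to the counts of the 8930 genes listed for both libraries, and 8912 symbols were matched. UMIs were summed per library and cell set, scaled to CPM, and compared on the log2(CPM + 10) scale, which understates ratios of low genes. Intervals are exact: binomial for shares, Poisson for levels, conditional binomial for ratios. They treat each UMI as independent and are too narrow where few cells hold a gene. Clusters came from 2000 variable genes, 30 components, 15 neighbours and Leiden at resolution 1 (scanpy 1.11.5, igraph 0.11.9). Doublets were treated by the authors' score only, and no caller was run. The named genes are the 15 highest and 10 lowest in members (by the weaker ratio of both libraries, least 50 UMIs in each), the 12 highest and lowest in exposed members by interval limit, and up to 4 genes of each of 38 lists; further list genes were named after their values were seen. A leading gene is not reported here. Members and lists were chosen with earlier results of these data known. Scripts (Python 3.11.15, numpy 2.4.6, scipy 1.17.1, pandas 2.3.3) were tested on simulated data. Alternatives changed the rule, the cells, the added CPM, the minimum of UMIs and the scaling.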

Additional observations from a re-analysis of the deposited data

Results flagged for a closer look

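For 6 of the leading genes the log2 ratio of exposed over control had opposite signs in members and in comparison cells, with intervals of counting error on opposite sides of no difference. For 1 list the medians had opposite signs and were each at least 0.1 from 0. With 1 library per group the difference was not tested in any of them. Rbp4, the retinol carrier, stood at 0.98 in members and -0.27 in comparison cells. In members outside cluster 4 Rbp4 was also lower in the exposed library, at 4.77 CPM against 39.4 in the control library. Ckap2, a spindle protein, stood at 1.01 and -0.40, and the G2/M list at a median of 0.34 and -0.24. The collecting duct channel Aqp2 stood at 1.02 and -2.48, and the calcium-binding protein S100g, a gene of distal tubule, at -1.07 and 1.58. The neutrophil genes S100a9 and S100a8 stood at -3.59 and -2.97 in members and at 2.17 and 1.45 in comparison cells, and in members their UMIs came from 2 control cells each. In exposed comparison cells the 312 UMIs of S100a9 and the 223 of S100a8 came from 1 cell each. Aqp2 was held by 18 control and 2 exposed members. S100g was found in 13.4% of control and 6.56% of exposed members, and in 14.0% and 7.49% of comparison cells. By cells detected, then, S100g was lower in the exposed library in both cell sets.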

How the results depend on the processing

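No paired analysis was possible because each group has 1 library, which also means that no library was left out. Over 18 other settings, 625 of 865 values of named genes stayed within their counting interval, 225 moved further and 15 were of opposite sign.

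Of the counts of genes higher and lower in exposed members (196 and 115), the values were 362 and 223 with 1 CPM added, 377 and 302 with no minimum of UMIs, and 20 and 24 with a minimum of 200, where fewer genes were measured. Depth limits the detection of rare transcripts such as those of Lum and Rbp4 per cell. Without the 5 cells richest in each gene 179 were lower. The counts for members minus comparison cells (254 and 138) were 439 and 236, 543 and 351, and 27 and 21 under the first 3 of these settings. For members against comparison cells, 98 genes higher became 61 with a minimum of 200 UMIs. The 31 lower genes became 76 with 1 CPM added, 17 with a minimum of 200, 14 against comparison cells with at least 2 collagens, and 19 without cells holding 3 markers of another type, a setting chosen after the data were seen.

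The share of members (4.77% of control and 5.82% of exposed cells) was 2.08% and 3.15% with 4 matrix genes required, 10.3% and 12.1% with 2, and 2.73% and 4.04% without Igfbp3. It was 2.74% and 3.73% in thinned cells, 5.52% and 6.54% in cells of at most 25% mitochondrial UMIs, and 3.89% in the control library with all 3 collagens required. It was higher in the exposed library under each of these settings for which both values are given.

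Reversed log2 ratios of exposed over control in members were -0.27, -0.13 and -0.12 for Col1a1, Col1a2 and Col3a1 with exactly 3 matrix genes, 0.48 and 0.11 for Apoe and Igf1 in cluster 4 and 0.032 and 0.023 outside cluster 15 (these 3 settings chosen after the data were seen), -1.13 for Aqp2 without its 5 richest cells and -0.35 for Nts with the doublet score not used. Reversed ratios of members over comparison cells were those of Atp1b1 (0.32) and Wfdc2 (0.027) in the exposed library against comparison cells with at least 2 collagens, and of Fxyd2, at 0.19 and 0.42 (control and exposed) in thinned cells and at 0.11 and 0.016 without cells holding 3 markers of another type. The causes were not tested.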

Other observations

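Some genes are listed for 1 library only and could be read there alone. Among 394 such genes measured in the control library, 6 were over 1 on the log2 scale in members over comparison cells. Hhip, a binding protein of hedgehog ligands, stood at 43.8 against 2.37 CPM (18.5-fold, 10.0 to 36.2), and Adamts7, a matrix metalloprotease, at 71.5 against 15.1 CPM (4.75-fold, 3.46 to 6.49). Fmod, which encodes fibromodulin, a relative of decorin, stood at 26.8 against 6.94 CPM. Among 309 such genes of the exposed library, 12 were over 1. Adamts2, the protease that trims the amino end of procollagen, stood at 73.0 against 5.27 CPM (13.9-fold, 8.60 to 23.1), and Epha3, an ephrin receptor, at 71.1 against 5.04 CPM. Dkk3, a secreted protein of the Dickkopf family, was 6.38-fold higher, Cpz, a carboxypeptidase, 8.69-fold and Lama2, a laminin chain, 3.25-fold. The cells were chosen for other matrix genes, so these values are a description, and the level of each of these genes in the other library was not analysed here.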
